A study of Mus musculus with 38 samples.

Results

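The genes described here are 35 mouse genes of the interferon response and of class I antigen presentation. They are a list of gene names, drawn up with earlier results of these data known but with no measured value in its rule, and all 35 were among the 25230 genes of the deposited count table and among the 16309 genes with enough reads to be tested. The study profiled adBNST tissue (the anterodorsal division of the bed nucleus of stria terminalis, in the extended amygdala), dissected from wild-type (WT) mice. The samples form 4 groups: female controls (FC, 10 libraries), stressed females (FS, 9), male controls (MC, 10) and stressed males (MS, 9). Stressed mice went through chronic variable mild stress for 6 weeks, a changing series of stressors such as altered lighting, wet bedding, forced swim, restraint and isolation. The series states 1 model with sex, condition and their interaction, and the comparisons below are the contrasts of that model.

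Interferons are secreted proteins that cells release on sensing foreign or misplaced nucleic acid. Type I interferons bind a receptor made of Ifnar1 and Ifnar2, which leads Stat2 and Irf9 to act in 1 complex on a short DNA element upstream of interferon-stimulated genes. The products of those genes block viral replication, tag proteins with Isg15 or ubiquitin, sense RNA, and supply the proteasome subunits, peptide pump and class I molecules that show peptides to T cells. In brain tissue without infection these genes are usually transcribed at a low, tonic level, with microglia and vascular cells as prominent sources.

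The sequence element is shown first because it is what many of the members share apart from their values. The core GAAA, any 2 bases, GAAA (TTTC, any 2 bases, TTTC on the other strand) was searched in the RefSeq promoter windows of GRCm38.p6, which run from 250 bases before to 50 bases after each start site; overlapping matches were counted separately. A window was present for 30 of the 35 members. The core lay in the windows of 13 of those 30 genes, or 13 of 34 member windows (38.2%), against 3.44% of all 32851 windows. The members with a match were Ifit1, Ifit3, Ifih1, Isg15, Stat2, Rsad2, Bst2, Ifitm2, Ifitm3, Trim21, B2m, Ddx58 and Eif2ak2. A match of letters describes the window and is not a measured binding site. The stretches below are printed 5′ to 3′ on the gene's strand for Ifit1 (chr19:34640739-34640858, plus strand), Ifit3 (chr19:34583343-34583472, plus strand) and Isg15 (chr4:156200849-156200968, minus strand), with each match in capitals; they and Ifih1 are the first members in list order that hold the core, and Ifit1 and Isg15 return in the results below. For Ifih1 the match lies inside the transcript, and a site of 28 bases is shown (chr2:62646206-62646233, minus strand).
Ifit1: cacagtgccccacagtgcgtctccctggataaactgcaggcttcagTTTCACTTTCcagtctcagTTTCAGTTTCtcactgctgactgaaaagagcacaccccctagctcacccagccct
Ifit3: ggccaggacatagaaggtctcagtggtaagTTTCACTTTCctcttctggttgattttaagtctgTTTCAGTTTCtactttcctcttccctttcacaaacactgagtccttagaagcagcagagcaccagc
Isg15: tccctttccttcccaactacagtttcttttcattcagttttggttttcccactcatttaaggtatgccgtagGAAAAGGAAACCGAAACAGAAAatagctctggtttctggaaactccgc
Ifih1: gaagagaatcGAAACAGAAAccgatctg
Ifit1 and Ifit3 each carried 2 separate matches, and in Isg15 a run of 3 overlapping matches began 78 bases before the RefSeq start. The Ifih1 match began at base 33 of its transcript. All matches of Ifitm3, Trim21, Ddx58 and Eif2ak2 also began after the RefSeq start.

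Library totals ran from 9.06 to 84.8 M counts (M for mega) with a median of 27.32 M. Levels are given as CPM, counts scaled to a common library total with factors from the trimmed mean of M-values (TMM), on which 1 count was worth between 0.012 and 0.11 CPM. Several libraries stood apart in ways that touch the members. In 5 libraries (FC1, FC6, FS1, FS2 and MC3) the summed level of 10 oligodendrocyte markers was 21300 to 26600 CPM, against 4700 to 16700 CPM in the other 33. The stressed male library MS5 held 3320 CPM of choroid plexus markers, against 44.3 to 220 CPM in the other 37. The libraries numbered 1 to 5 and those numbered 6 and above also differed in 45.5% of all tested genes, and the labels do not say what the numbers stand for. Markers of neurons, astrocytes, oligodendrocytes, microglia and endothelium were present in every group, with neuronal markers summing to between 5120 and 8280 CPM per library. In such bulk tissue fewer cells of a type and less RNA per cell cannot be told apart. The labels do not say that each library is a separate animal, so the p-values measure the spread between libraries.

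Most members were expressed at low levels. The median CPM over the 38 libraries ran from 0.908 for Ifi44 to 62.8 for B2m, the light chain of all class I molecules. Per kilobase of annotated exon, the median level was highest for B2m (73.1 CPM per kb), followed by Ifi27 (12.9), Ifitm3 (10.7), H2-K1 (7.28) and Lgals3bp (5.79). The lowest levels per kilobase were those of Ifi44 (0.148 CPM per kb), Psmb9 (0.256), Usp18 (0.337), Irf7 (0.405) and Rsad2 (0.415). Stat2 and Irf9 stood above most other members on this scale, at 5.27 and 3.05 CPM per kb against 0.711 for Ifit1. Ifit3, at 3.48, was above Irf9. The factors Irf1 (1.55) and Irf7 (0.405) stood lower. The genes for interferons themselves were almost unread: Ifnb1 and Ifna4 had no count in any library, Ifna2 had 2 counts in all, and Ifng had 70 counts spread over 23 libraries.

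**Figure D1:**
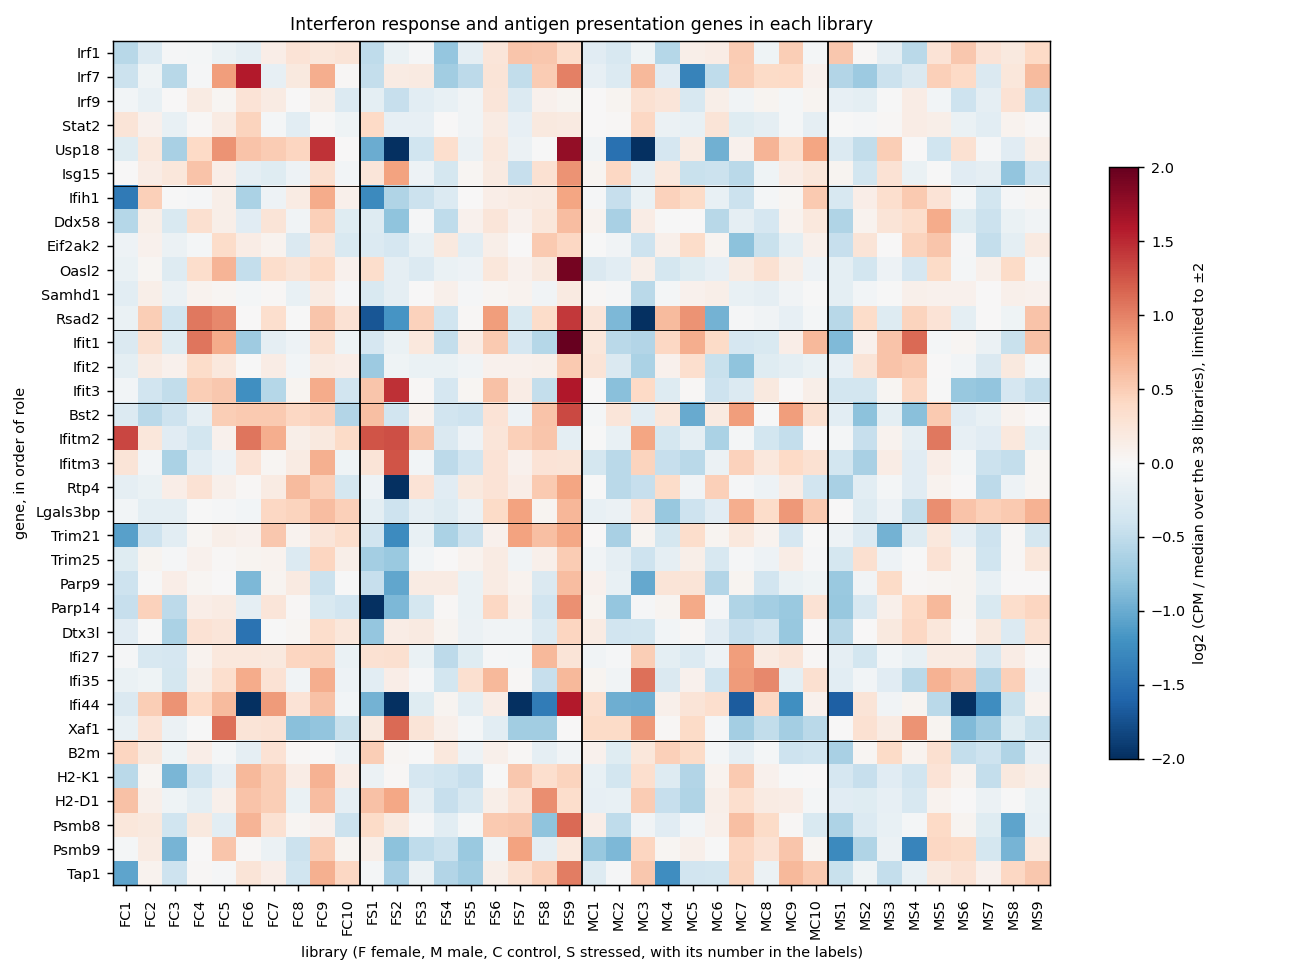
Level of each of the 35 genes (vertical axis, in order of role) in each of the 38 libraries (horizontal axis), as log2 of CPM over that gene's median of all libraries, with colours limited to 2 in either direction. The column of the stressed female library FS9 holds the highest value of all libraries for 17 of the genes, from Usp18 and Isg15 to Psmb8 and Tap1.

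The question of the stress contrasts was whether the members differed between stressed and control mice of each sex. None did at the threshold used throughout, an adjusted p under 0.05 (edgeR's quasi-likelihood test fitted to all genes, Benjamini-Hochberg adjustment over all 16309). In females 0 of 35 members were called, as were 0.0% of all tested genes; 1 member had an unadjusted p under 0.05, as did 1.89% of all genes, and 16 had estimates above 0 and 19 below. In males 0 of 35 were called, again beside 0.0% of all genes, with 1 member at an unadjusted p under 0.05 (4.02% of all genes) and 17 estimates above 0. The median log2 fold change of the members was -0.00223 in females (0.00984 over all genes) and -0.00847 in males (-0.0221 over all genes). DESeq2 and limma's voom also called 0 members in both sexes. The 95% intervals show what the data allow: that of Samhd1 in females ran from -0.15 to 0.14 on the log2 scale, and that of Ifi44 from -1.29 to 0.40.

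**Figure D2:**
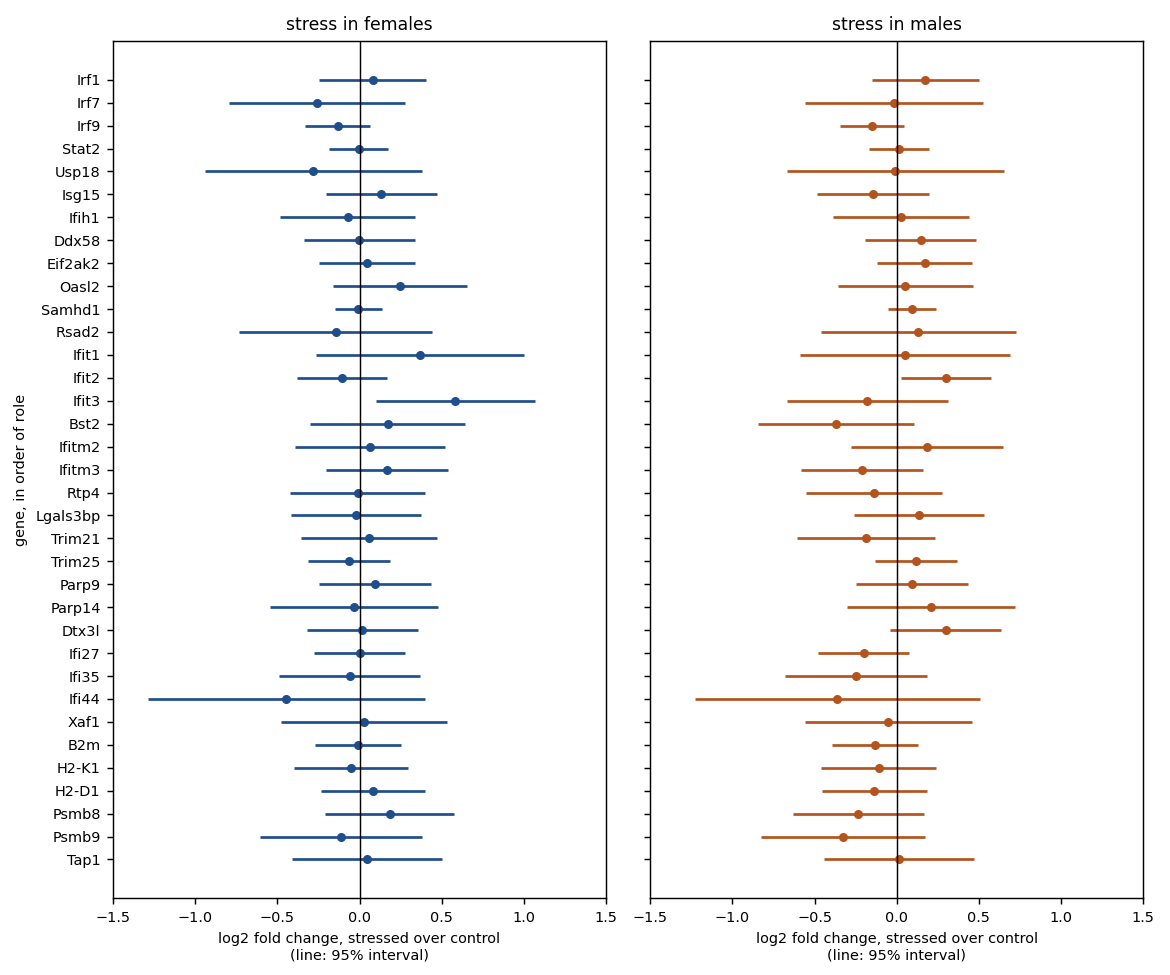
Log2 fold change of each gene (vertical axis, in order of role), stressed over control, in females (left, blue) and males (right, orange), with its 95% interval as a line. In females the interval of Ifit3 lies above 0 and in males that of Ifit2 does, and no gene passed the test after adjustment.

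The IFIT proteins bind foreign RNA and are among the most strongly interferon-induced products. Their genes lie in a row on chromosome 19, with Ifit2 at chr19:34550694-34576419, Ifit3 at chr19:34583531-34588731 and Ifit1 at chr19:34640871-34650009, all on the plus strand. Ifit3 ran from 2.59 CPM over a median of 5.27 to 10.2 in FC, and from 4.37 over 6.71 to 18.5 in FS. It was 3.39, 6.08 and 8.02 CPM (lowest, median, highest) in MC and 3.52, 4.72 and 8.08 in MS. The groups overlapped, and 2 stressed females, FS9 at 18.5 and FS2 at 16.7 CPM, lay above all other libraries. The log2 fold change with stress in females was 0.58 ± 0.24 (SE; edgeR unadjusted p = 0.0198, adjusted p = 1). Without FS9 it was 0.38 ± 0.23, and without the 5 myelin-rich libraries 0.31 ± 0.25. Ifit3 shares 51.2% of its 50-base words with its neighbour Ifit3b, so the counting may have split or dropped their reads; Ifit3b stood at 17.4 CPM in FS2 and 11.2 in FS9.

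Ifit2 was 6.00, 9.01 and 13.2 CPM in MC and 8.59, 10.6 and 15.6 CPM in MS (lowest, median, highest), so the male groups overlapped over most of their range. Its log2 fold change with stress in males was 0.30 ± 0.14 (edgeR unadjusted p = 0.0337, adjusted p = 0.863), and in females it was -0.11 ± 0.14. In FC it ran from 9.17 to 13.6 CPM and in FS from 6.36 to 15.1 CPM. Ifit1 was 1.15, 1.77 and 3.95 CPM in FC and 1.27, 1.72 and 10.2 CPM in FS. Its mean was higher in FS (2.73 ± 2.85 CPM, SD, n = 9) than in FC (2.13 ± 0.86, n = 10) while its median was not, since a single library held the value of 10.2 CPM. The log2 fold change of Ifit1 with stress in females was 0.37 ± 0.31 (edgeR unadjusted p = 0.25, adjusted p = 1), and -0.25 ± 0.24 without that library (unadjusted p = 0.317, adjusted p = 1).

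Among the factors and regulators, Irf9 and Stat2 complete the factor that type I interferon activates, Irf7 drives further interferon production, Irf1 is induced by interferon gamma, and Isg15 and Usp18 are a ubiquitin-like tag and the protease that removes it. Irf9 was 13.6, 16.8 and 19.9 CPM in FC and 12, 14.9 and 19.4 in FS. It was 13.2, 17.0 and 20.4 CPM in MC and 11.6, 14.7 and 20 in MS. The log2 fold change of Irf9 was -0.13 ± 0.10 in females (edgeR unadjusted p = 0.175, adjusted p = 1) and -0.15 ± 0.10 in males (unadjusted p = 0.132, adjusted p = 0.863). Both stressed medians were lower than the control medians and the ranges overlapped almost wholly. Averaged over the sexes, the log2 fold change of Irf9 was -0.14 ± 0.07 (edgeR unadjusted p = 0.0457, adjusted p = 1). In this averaged contrast 0 of 35 members were called beside 0.0% of all genes, and DESeq2 and voom called 0 as well; 1 member, Irf9, had an unadjusted p under 0.05, against 1.47% of all genes. The other estimates with the smallest unadjusted p there were -0.40 ± 0.30 for Ifi44 (p = 0.186) and -0.22 ± 0.17 for Psmb9 (p = 0.212), and 0.16 ± 0.12 for Dtx3l (p = 0.189), 0.20 ± 0.17 for Ifit3 (p = 0.244) and 0.13 ± 0.11 for Irf1 (p = 0.267), each with an edgeR adjusted p of 1.

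Stat2 was steady, with medians of 31.4 CPM in FC, 31.3 in FS, 29.5 in MC and 31.7 in MS, and log2 fold changes of -0.01 ± 0.09 in females and 0.01 ± 0.09 in males. Irf7 was 1.04, 1.53 and 4.59 CPM in FC and 0.945, 1.72 and 3.07 CPM in FS. Its log2 fold change in females, -0.26 ± 0.27 (edgeR unadjusted p = 0.338, adjusted p = 1), went the other way from its medians; the highest value, 4.59 CPM, was in FC6. Isg15 ranged from 1.27 CPM in a stressed male to 4.09 in FS9, and Usp18 from 0.132 to 3.19 CPM, both extremes of Usp18 being stressed females. Usp18 had only 2 counts in its lowest library, so its position there rests on few reads. Irf1 had medians between 5.93 and 7.47 CPM in the 4 groups.

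The RNA sensors and antiviral enzymes include Ifih1 (MDA5) and Ddx58 (RIG-I), which sense double-stranded RNA, Eif2ak2 (PKR), which halts translation, Samhd1, which depletes nucleotides, Rsad2 (viperin) and Oasl2. In males all 6 estimates with stress were above 0, between 0.03 and 0.17, and 0 of 6 passed. Samhd1 was the steadiest member: 20.6, 29.3 and 32.3 CPM in MC and 26.2, 31.6 and 32.1 in MS, a log2 fold change of 0.09 ± 0.07 (edgeR unadjusted p = 0.209, adjusted p = 0.863). Oasl2 was 3.19, 5.02 and 7.09 CPM in FC and 3.66, 4.73 and 16.7 CPM in FS. As for Ifit1, the FS median was below the FC median while the estimate was 0.25 ± 0.20 (edgeR unadjusted p = 0.229, adjusted p = 1), and it was -0.13 ± 0.14 without FS9. Ddx58 had medians of 5.39 to 5.99 CPM and Eif2ak2 of 7.27 to 7.58 CPM in the 4 groups.

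Of the membrane and secreted proteins, Bst2 (tetherin) holds budding virions to the cell surface, Ifitm2 and Ifitm3 block viral entry, and Lgals3bp is a secreted galectin ligand. Bst2 was 0.725, 1.67 and 2.61 CPM in MC and 0.815, 1.27 and 2.09 CPM in MS, with a log2 fold change of -0.37 ± 0.24 (edgeR unadjusted p = 0.121, adjusted p = 0.863). Ifitm2 was high in the libraries that cell type markers set apart. In the 5 myelin-rich libraries and MS5 it stood at 5.61 to 8.26 CPM, above the 2.09 to 5.37 CPM of the other 32. The part of tissue makeup in the level of Ifitm2, and in its group differences, was not tested. Ifitm2 also shares 48.5% of its 50-base words with the overlapping gene model Gm45717. Lgals3bp ran from 9.68 to 31.5 CPM, its highest value being in MS5, and Rtp4 from 0.396 to 3.80 CPM.

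The ubiquitin and ADP-ribose enzymes are the ligases Trim21 and Trim25, the latter an activator of RIG-I, and Parp9, Parp14 and Dtx3l, of which Parp9 and Dtx3l form a complex. Dtx3l was 2.80, 3.84 and 5.29 CPM in MC and 3.21, 5.40 and 6.27 CPM in MS, with a log2 fold change of 0.30 ± 0.17 (edgeR unadjusted p = 0.0813, adjusted p = 0.863). The median of MS exceeded the highest MC value, and the ranges still overlapped. In females the 5 estimates lay between -0.06 and 0.09. Among the remaining interferon-induced genes Ifi27, Ifi35, Ifi44 and Xaf1, all 4 estimates in males were below 0; that of Ifi27, a mitochondrial and nuclear-envelope protein, was -0.20 ± 0.14 (edgeR unadjusted p = 0.154, adjusted p = 0.863), with 15.6, 18.9 and 33.9 CPM in MC and 14.7, 18.2 and 21.2 in MS. Ifi44 had the widest intervals of all members, with 0.0998, 1.23 and 1.69 CPM in FC and 0.139, 0.763 and 2.71 CPM in FS. Its log2 fold change in females was -0.45 ± 0.42 (edgeR unadjusted p = 0.292, adjusted p = 1), and -0.94 ± 0.41 without FS9 (unadjusted p = 0.0261, adjusted p = 1).

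The class I antigen presentation members are the light chain B2m, the heavy chains H2-K1 and H2-D1, the immunoproteasome subunits Psmb8 and Psmb9 and the peptide transporter subunit Tap1. Psmb9, Tap1 and Psmb8 lie side by side in the major histocompatibility complex on chromosome 17 (chr17:34181987-34187764, chr17:34187553-34197225 and chr17:34197721-34201454). B2m was 55.3, 63.7 and 84.4 CPM in FC, 55.5, 63.9 and 88.6 in FS, 46.9, 61.2 and 87.1 in MC and 40.0, 56.3 and 82.2 in MS. Its log2 fold change with stress was -0.01 ± 0.13 in females and -0.13 ± 0.13 in males, and the groups overlapped throughout. H2-K1 had medians of 22.9, 21.3, 21.4 and 18.2 CPM, and H2-D1 of 11.6, 13.3, 11.2 and 9.86 CPM, in FC, FS, MC and MS. H2-D1 was narrowest in MS, at 8.65 to 11.4 CPM, and widest in FS, at 7.85 to 20.6 CPM. Psmb8 and Psmb9 ran from 0.864 to 3.96 CPM and from 0.376 to 1.64 CPM over all libraries. In females 3 of 6 estimates were above 0 and in males 1 of 6; 0 of 6 passed in either sex.

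The interaction asks whether stress acted differently in the sexes. It called 0 of 35 members beside 0.0% of all genes, and 0 by DESeq2 and voom; 2 members had an unadjusted p under 0.05, against 4.51% of all genes. Ifit3 had an interaction of -0.76 ± 0.34 (male minus female stress effect, log2; edgeR unadjusted p = 0.0314, adjusted p = 0.845), which was -0.55 ± 0.32 without FS9. Ifit2 had 0.41 ± 0.19 (unadjusted p = 0.0413, adjusted p = 0.845). Next by unadjusted p were Bst2 (-0.54 ± 0.33, p = 0.108), Psmb8 (-0.42 ± 0.28, p = 0.14), Dtx3l (0.28 ± 0.24, p = 0.239) and Trim25 (0.18 ± 0.17, p = 0.297), with edgeR adjusted p-values of 0.845, and 0.849 for Trim25.

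Between the sexes, 0 of 35 members were called in controls, where 0.0674% of all tested genes were, and 0 of 35 in stressed mice, where 0.0858% of all genes were; DESeq2 and voom called 0 members in both. In controls 2 members had an unadjusted p under 0.05 (4.16% of all genes), both lower in males (1.99% of all genes): Ifitm2 (-0.56 ± 0.22) and Ifit2 (-0.27 ± 0.13). In stressed mice 5 did (11.1% of all genes), all lower in males (8.0% of all genes): Ifit3 (-0.82 ± 0.25, edgeR unadjusted p = 0.00203, adjusted p = 0.378), H2-D1 (-0.42 ± 0.16), Psmb8 (-0.47 ± 0.20), Isg15 (-0.40 ± 0.17) and Ifitm3 (-0.42 ± 0.19). The members' median in stressed mice was -0.14, with 25 of 35 below 0, against -0.0131 over all genes. Without FS9 that median was 0.03 and Ifit3 was at -0.61. In that refit 4 members, all lower in males, had an unadjusted p under 0.05, beside 2291 of 16333 genes in either direction. Within the libraries numbered 1 to 5 the median was 0.07. There 3 members, all higher in males, had an unadjusted p under 0.05, beside 2061 of 15836 genes. Among those numbered 6 and above, which include FS9, the median was -0.38. There 11 members, all lower in males, had an unadjusted p under 0.05, beside 480 of 16668 genes, and 0 were called.

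The stressed female library FS9 stood apart from all the others in these genes. This was noticed in the data, so it is described and not tested. FS9 had 30 M counts, close to the median library. It held the highest level of all 38 libraries for 17 of the 35 members, while it did so for 0.883% of all tested genes. It exceeded every other stressed female for 20 members (6.18% of all genes), and lay over 2-fold above their median for 12 (2.50% of all genes). It lay above that median for 32 members (49.6% of all genes). On this last count other libraries came close within their own groups, MS5 with 31 members and FS6 with 30. The members' median log2 deviation from the other 8 stressed females was 0.61, against -0.00249 for all genes. In the other 37 libraries the same median, taken within each library's own group, ran from -0.41 to 0.34, and no library was highest for more than 3 members.

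**Figure D3:**
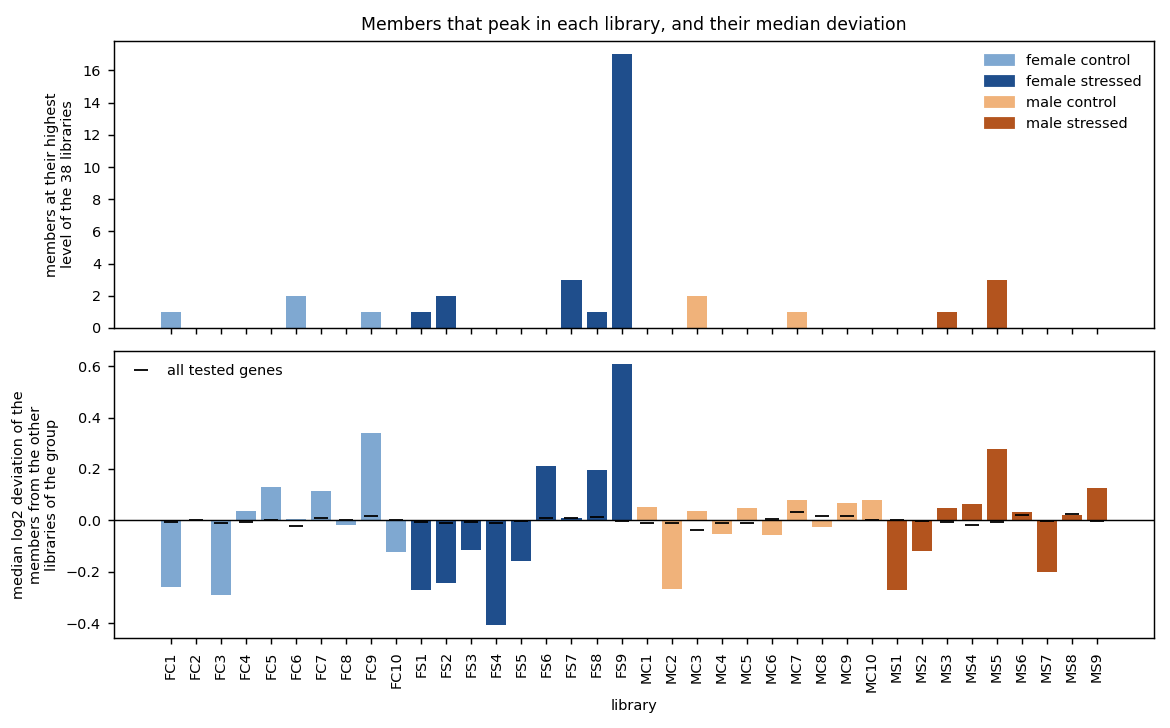
For each library (horizontal axis), the number of the 35 genes whose highest level of all 38 libraries fell there (top), and the median log2 deviation of the genes from the other libraries of the same group (bottom, bars; black ticks give the median of all tested genes). FS9 is highest for 17 genes and deviates by 0.61, and no other library exceeds 3 genes or 0.34.

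The median log2 deviation in FS9 was 1.51 for the 3 IFIT genes and between 0.46 and 0.75 for the other 6 roles, a difference that was not tested. In the IFIT family, Ifit1 reached 10.2 CPM (320 counts) in FS9 against at most 2.71 in the other stressed females and 4.14 in the other 37 libraries. Oasl2 reached 16.7 CPM (524 counts) against at most 5.65 and 7.09. Usp18 stood at 3.19 CPM against at most 1.19 in the other stressed females and 2.56 elsewhere. These 3 genes were 3.70 to 6.34-fold above the median of the other 8 stressed females. Ifi44 was 4.40-fold, Rsad2 2.95-fold, Ifit3 2.86-fold, Bst2 2.52-fold, Parp14 2.22-fold, Irf7 2.18-fold, Tap1 2.15-fold, Psmb8 2.07-fold and Trim21 2.04-fold above it. Isg15, the tag itself, was 1.72-fold above it at 4.09 CPM. Of the abundant members, Stat2 was 1.15-fold and H2-D1 1.10-fold above the median, and B2m was at 0.931 of it. Ifitm2 was below it, at 0.612 of the median.

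**Figure D4:**
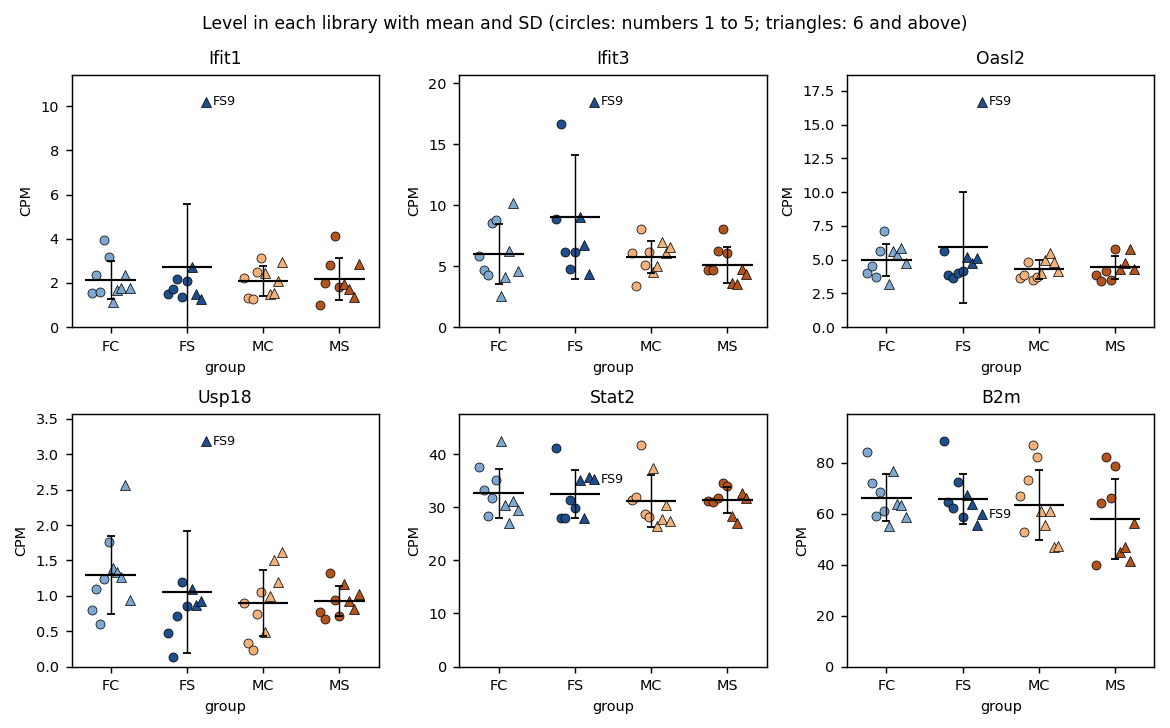
CPM of 6 genes in each library, by group (horizontal axis), with circles for libraries numbered 1 to 5 and triangles for 6 and above, and the group mean with its SD as lines. FS9 is far above its group for Ifit1, Oasl2 and Usp18, shares the top of Ifit3 with FS2 (16.7 CPM), and lies within its group for Stat2 and B2m.

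Genes outside the 35 showed the same library. Of 52 tested further interferon-stimulated genes, 15 were highest in FS9 and 13 lay over 2-fold above the other stressed females' median, among them the helicase Ddx60 at 5.59 CPM (6.68-fold), the synthetase Oas1a at 1.18 CPM (7.10-fold) and the GTPase Iigp1 at 6.58 CPM (4.87-fold). Mx1, which had too few counts to be tested, had 53 of its 219 counts in FS9, and the chemokine Cxcl10 had 45 of its 246. Of the other genes of this list with too few counts, Oas1g and Apol9a had no more counts in any other library. Oasl1, Apol9b, Ccl5, Ifitm6 and Cxcl9 did, with 8 of 156 counts of Ccl5 and 1 of 141 of Ifitm6 in FS9. Gvin1 had no count in any library. Of 23 further class I genes 1 was highest there, the class I transactivator Nlrc5, and of 14 class II genes 0 were. Of the interferon genes, Ifng had 6 of its 70 counts in FS9, where the most in any library was 9. Ifnb1 and Ifna2 had 0 counts there, but with at most 2 counts over all libraries they were not detectable at this depth.

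Markers of cell types were measured beside it. The 16 microglial markers summed to 516 CPM in FS9, above the 246 to 489 CPM of the other stressed females and in place 12 among all 38 libraries, with 0 of 16 highest there. Of these 16, 7 were above every other stressed female, against 6.18% of all genes, and 13 were above the median of those libraries (median log2 deviation 0.30). The 16 markers of blood and meningeal leukocytes summed to 20.1 CPM, within the 18.2 to 157 CPM of the other stressed females. Cd4 gave 11.6 CPM of this sum, so the sum says little of the rarer markers. In FS9 5 of the 16 had no count, Cd3e, Ms4a1, Ly6g, S100a8 and Nkg7. Cd8a (9 counts, 0.287 CPM) and Ly6c2 (7 counts, 0.224 CPM) had their highest level of all libraries there, on few counts. The 6 border macrophage markers summed to 4.31 CPM (1.41 to 11.2 in the other stressed females), and of the 3 that could be tested 2 lay over 2-fold above the median of those libraries, against 2.50% of all genes. Oligodendrocyte markers were low there, 5940 CPM in sum with 0 of 10 above the group's median. All 8 ependymal markers were above that median, with a sum of 204 CPM. FS6, FS7 and FS8, the other stressed females numbered 6 and above, had sums of 4710 to 7590 and 177 to 258 CPM. Of the 3 tested border macrophage genes, Mrc1 and F13a1 were called higher in libraries numbered 6 and above (log2 difference 1.59 and 1.31). Cd163 was called lower there (-1.06). The part of cell makeup in the level of the members in FS9 was not tested.

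FS2, the other stressed female with high Ifit3, did not share the pattern. It had 16.7 CPM of Ifit3 and 3.83 CPM of Isg15, both next to FS9, and the highest Ifitm3 of all libraries at 17.3 CPM. Ifit1 was at 1.72 CPM there, and Usp18, Rtp4, Trim21, Trim25, Parp9 and Ddx58 were at their lowest of all libraries, Usp18 at 0.132 and Rtp4 at 0.396 CPM. FS2 is among the myelin-rich libraries, and many genes outside the members were extreme there too. It was highest of all libraries for 2 members and for 9.06% of all tested genes. It lay over 2-fold below its group for 6 members and for 11.2% of all genes. The share of all genes at their lowest in FS2 was not measured.

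Each gene list fixed for the wider pathway gave 0 calls in every stress contrast. In females the medians were -0.00375 for 19 receptor and signalling genes, -0.0214 for 16 nucleic acid sensors, 0.07 for 52 further interferon-stimulated genes, 0.05 for 23 further class I genes and 0.24 for 14 class II genes. The smallest unadjusted p among them in females belonged to Ifitm1, an entry inhibitor like Ifitm2 and Ifitm3, at 0.88 ± 0.30 (edgeR unadjusted p = 0.00588, adjusted p = 1). In males it belonged to Psme2, a proteasome activator subunit, at -0.30 ± 0.12 (edgeR unadjusted p = 0.0157, adjusted p = 0.863). The largest class II estimate in females with a small p was that of the costimulatory receptor Cd40, 0.88 ± 0.44 (edgeR unadjusted p = 0.0505, adjusted p = 1).

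The libraries numbered 1 to 5 (n = 20) and those numbered 6 and above (n = 18) differed in 45.5% of all tested genes. The fit held the 4 groups and a term for this split. Here 12 of 35 members were called, 10 higher (23.2% of all genes) and 2 lower (22.3% of all genes) in the higher numbers, a share below the 45.5% of all genes called in either direction. Lgals3bp was 9.68, 14.7 and 31.5 CPM in the lower numbers and 14.1, 23.3 and 30.1 CPM in the higher, a log2 difference of 0.59 ± 0.10 (edgeR adjusted p = 9.77e-06). H2-K1 was 0.48 ± 0.10 higher (adjusted p = 8.32e-05), Irf1 0.44 ± 0.09 (adjusted p = 0.000105) and Tap1 0.59 ± 0.13 (adjusted p = 0.000306). Trim21, Irf7, Bst2, Usp18, Ifi27 and Oasl2 were also called higher, by 0.24 to 0.61. Xaf1, a pro-apoptotic partner of the inhibitor protein XIAP, fell from 3.87, 5.04 and 9.45 CPM to 2.35, 3.02 and 5.24 CPM, by -0.76 ± 0.13 (adjusted p = 1.25e-05), and B2m by -0.29 ± 0.08 (adjusted p = 0.00242). B2m and its partner H2-K1 were called in opposite directions, and the ranges of both overlapped between the number sets. Without FS9 the calls numbered 10, as Usp18 (adjusted p = 0.0575) and Oasl2 (adjusted p = 0.127) fell out. Usp18 was also lost without the 5 myelin-rich libraries (adjusted p = 0.0657) and Oasl2 with no filter on low counts (adjusted p = 0.0628). Oasl2 was called in 14 and Ifi27 in 36 of the 38 refits that leave out a single library.

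**Figure D5:**
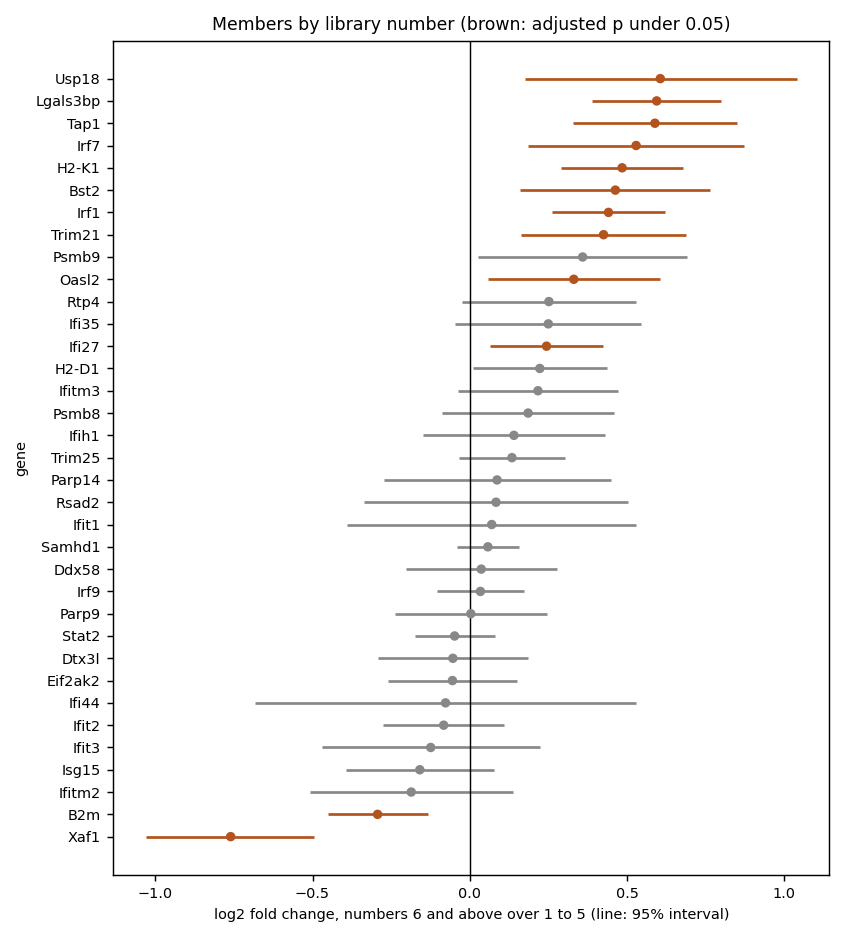
Log2 difference of each gene (vertical axis, in order of size) between libraries numbered 6 and above and those numbered 1 to 5, with its 95% interval as a line and genes past the adjusted threshold in brown. The points run from -0.76 for Xaf1 to 0.61 for Usp18, with 10 genes called above 0 and 2 below. Of all tested genes 23.2% were called above 0 and 22.3% below.

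Cell type markers moved with the same split: all 10 oligodendrocyte markers were called lower in the higher numbers (median log2 difference -0.95) and all 8 ependymal markers higher (1.22), while of 16 microglial markers 3 were higher and 1 lower. Their part in the members' differences was not tested. Stress was also estimated within each number set, and the difference between the sets was not tested. In females the members' median was -0.14 among the numbers 1 to 5 and 0.14 among 6 and above, where FS9 is. In males it was 0.0121 and -0.0865. In each sex 0 members were called in either set.

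Of 11 pairs of members fixed for comparison, 8 were correlated across the 38 libraries after centring on the group means (log2 CPM, two-sided permutation test within groups, Benjamini-Hochberg over the 11 pairs). The heavy chains H2-K1 and H2-D1 had Pearson's r = 0.627 and Spearman's rho = 0.635 (permutation p = 7e-05 and 0.0001, adjusted 0.00077 and 0.0011); r was 0.607 without the 2 most distant libraries, and 0.622 and 0.603 within the lower and higher numbers. They share some sequence, 12.8% of the 50-base words of H2-D1 being found in H2-K1. Ifit1 and Ifit3 had r = 0.593 and rho = 0.486 (permutation p = 0.00026 and 0.00308, adjusted 0.00143 and 0.00774), and r = 0.436 without FS9 and MS4. Within the number sets r was 0.399 and 0.744. The pair Ifitm2 and Ifitm3 had r = 0.527 and rho = 0.448 (permutation p = 0.00108 and 0.00621, adjusted 0.00396 and 0.00976; 0.517 without the 2 most distant libraries), but 0.815 in the lower numbers and -0.0467 in the higher, so the relation did not hold in both. Without the 5 myelin-rich libraries its adjusted p was 0.0626.

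The other correlated pairs had adjusted permutation p-values for r between 0.00497 and 0.0127, adjusted p-values for rho between 0.0022 and 0.0121, and r between 0.376 and 0.627 without the 2 most distant libraries. Stat2 and Irf9, which act in 1 complex, had r = 0.474 (0.374 and 0.515 within the number sets) and rho = 0.48. Parp9 and Dtx3l, which share a promoter region and overlap on opposite strands, had r = 0.488 (0.427 and 0.576) and rho = 0.432. Parp9 and Parp14 had r = 0.491 (0.435 and 0.411) and rho = 0.496, Psmb8 and Psmb9 r = 0.468 (0.525 and 0.479) and rho = 0.475. Tap1 and Psmb9, which also overlap on opposite strands, had r = 0.484 (0.285 and 0.381) and rho = 0.567. Whether the counting used strand is not known, so reads of each overlapping pair may have been shared between its genes. When the libraries were centred on number set as well as group, Tap1 with Psmb9 (adjusted p = 0.0901) and Parp9 with Parp14 (adjusted p = 0.0577) lost the call for r. Without the 5 myelin-rich libraries Parp9 with Dtx3l had r = 0.409 (adjusted permutation p = 0.0388) and lost the call for rho, at 0.362 (adjusted p = 0.0832).

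The remaining 3 pairs did not pass. Isg15 and the protease Usp18 that removes it had r = 0.0123 and rho = 0.0283 (permutation p = 0.951 and 0.874, adjusted the same), r = -0.18 without the 2 most distant libraries, with -0.459 in the lower numbers and 0.761 in the higher. Irf7 and Isg15 had r = 0.171 and rho = 0.139 (permutation p = 0.318 and 0.42, adjusted 0.35 and 0.462; 0.141 without 2 libraries; 0.286 and 0.421 within the number sets). B2m and H2-K1, the chains of 1 molecule, had r = -0.164 and rho = -0.189 (permutation p = 0.29 and 0.244, adjusted 0.35 and 0.299; -0.237 without 2 libraries; 0.238 and 0.0187 within the number sets). The members of a pair share their libraries, depth and cell makeup, so these values describe how the genes varied together and no more.

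The spread between libraries was wide for the low members. The coefficient of variation over the 38 libraries had a median of 30.1% for the members, from 9.18% for Samhd1 to 66.6% for Ifit1. It was 24.1% for the 10674 genes of the same range of levels. Only the range was matched, and not how common low levels were within it, so the medians are not like for like. Without FS9 the median was 27.3% and the highest was 53.2%, for Ifi44.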

How the data were processed

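RNA from 38 adBNST dissections was sequenced after poly-A selection with a stranded kit, per the labels' protocols. The authors deposited 1 table of whole-number read counts per gene. The submitters' processing notes name the mm10 build and STAR, featureCounts and DESeq2; their versions, the gene annotation, the strand setting and any filters were not given in the sources used here. Of 25230 genes, 8921 were removed by edgeR's filterByExpr. The rest were scaled by TMM and fitted by group over all 38 libraries with edgeR 4.0.16 (glmQLFit, glmQLFTest) in R 4.3.3. Adjustment was by Benjamini-Hochberg across all tested genes, with a threshold of 0.05. The biological coefficient of variation was 0.266. Alternatives were DESeq2 1.42.0, voom with quality weights (limma 3.58.1), other size factors, no filter, a block for replicate number, a term for number sets, and subsets of libraries, with each library left out in turn. The fitting script was tested on simulated data. Log2 CPM used a prior count of 2. Groups and numbers came from the sample titles, and no 2 libraries of a group agreed within sampling noise (chi-square per gene at least 8.19). Gene positions and exon lengths came from GENCODE vM21 and promoter windows from RefSeq on GRCm38.p6. Full statistics are given, per stress contrast, for the 3 members with the smallest unadjusted p in each direction. Members that passed for the number sets are given with estimate, SE and adjusted p. Of these, Trim21, Irf7, Bst2, Usp18, Ifi27 and Oasl2 are given with the range of their estimates only. From each wider list with no call, the 2 genes with the smallest p could be named. Genes named for FS9 or FS2, and the leaving out of FS9 on those counts, were chosen after their values were seen. The members, lists, pairs and number sets were chosen with earlier results of these data known.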

Additional observations from a re-analysis of the deposited data

Results flagged for a closer look

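Each of the 35 genes was examined in each of the 4 groups for a library whose gap to its nearest neighbour took up an unusually large part of the group's range. Of 140 such sets, 14 held one. The rule's rate of about 1 in 20 sets, or 7, holds for independent sets of normally distributed values. The sets here share libraries and their CPM were not log-transformed, so 14 cannot be read against 7. The stressed female FS9 was high for 5 genes: Ifit1 at 10.2 CPM (the next library was at 2.71), Usp18 at 3.19 CPM (1.19), Bst2 at 3.64 CPM (2.20), Ifi44 at 2.71 CPM (1.00) and Oasl2 at 16.7 CPM (5.65). The stressed female FS2 was high for Ifitm3 at 17.3 CPM (8.71) and Xaf1 at 9.45 CPM (5.14), and FS7 for Psmb9 at 1.64 CPM (1.09). Among female controls, Irf7 was high in FC6 at 4.59 CPM (2.72), Trim25 in FC9 at 15.0 CPM (12) and Xaf1 in FC5 at 9.24 CPM (5.24). Ifitm2 was high in MC3 at 5.61 CPM (3.28) and in MS5 at 6.73 CPM (3.75), and Samhd1 was low in MC3 at 20.6 CPM (26.4).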

How the results depend on the processing

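In all 6 contrasts of stress and sex, 0 of 35 members were called by edgeR, DESeq2 and voom, with other size factors, with no filter, with a term for number sets, within either number set, without the 5 myelin-rich libraries, without MS5, and in each of the 38 refits without 1 library. The labels give the groups the same replicate numbers, and the numbers were taken to pair samples only if every same-numbered pair correlated above 0.1. That was met by 8 of 9 pairs of stressed libraries of the 2 sexes (lowest r 0.0984) and 7 of 9 pairs of female libraries (lowest r -0.357). It was met by 6 of 9 pairs of male libraries (lowest r -0.0757) and 7 of 10 pairs of control libraries of the 2 sexes (lowest r -0.247). Between 2 of 18 and 8 of 18 libraries, by pair of groups, correlated best with their own number, so some shared structure by number may be present. With a replicate block 0 members were called in each contrast, and calls over all genes went from 11 to 13 between the sexes in controls and stayed at 14 in stressed mice. The count for the number sets was 11 to 15 over the settings and 10 to 13 when 1 library was left out. Signs of estimates were unstable, and not only near 0. In females 24 of 35 members changed sign in at least 1 refit without a library, among them Ifit1 and Oasl2 without FS9. In males 8 did. Under voom 13 members changed sign in females. No smallest detectable difference was worked out, and the lack of calls does not show that the members were unchanged. Members under 1 CPM rest on few counts in some libraries.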
